A study of Mus musculus with 9 samples.

Results

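Stab1, Stab2, Mrc1, Lyve1, Fcgr2b, Scarb1, Msr1 and Dab2 were followed in RNA-seq read counts from mouse bone marrow (BM) endothelial cells (ECs). These 8 genes, 7 clearance receptors and 1 endocytic adaptor, were taken by symbol from a table of 46078 genes, and 8 of 8 were among the 15937 genes with enough counts to be tested. The study concerned arteriolar and sinusoidal vessels of the BM niche in acute myeloid leukemia, and these libraries came from B6 wild type mice with no treatment named. ECs had been sorted as CD45-Ter119-CD31+ cells and then split by Sca-1, the Ly6a product, into a Sca-1+ fraction (4 libraries, whose labels end in 7, 13, 15 and 19) and a Sca-1- fraction (5 libraries, whose labels end in 8, 10, 14, 16 and 22). The study writes Sca-1high for ECs of arterioles and Sca-1low for ECs of sinusoids, whereas the labels used here write Sca-1+ and Sca-1-. Titles of libraries 8, 15, 16 and 19 carry the tag wt, those of 13, 14 and 22 the tag CD452, that of 10 a tag of the same digits without the letters, and that of 7 no tag, although every library is labelled wild type. Libraries 15 and 16, of opposite fractions, share a leading number in their titles, which may be an animal. The labels give neither the age of the mice nor the animal behind the other libraries, so p-values measure the spread between these libraries, which may be technical.

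Sinusoidal ECs of liver, spleen and marrow are scavenger cells. They take up modified proteins, hyaluronan, glycoproteins, lipoproteins and small immune complexes from blood through a few receptors, carry them inward in clathrin-coated vesicles, and degrade them in lysosomes. Stabilins, the mannose receptor, LYVE1 and the inhibitory Fc receptor are used in anatomy as markers of such vessels, and macrophages share several of them.

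On levels scaled to whole libraries, 7 of the 8 genes were higher in Sca-1+ ECs than in Sca-1- ECs, and Lyve1 was lower. The difference ran from 3.01-fold for Scarb1 to 28.1-fold for Msr1 and 29.4-fold for Mrc1, and Lyve1 was 75.9-fold lower in Sca-1+ ECs. In none of the 8 did the ranges of the fractions overlap. When libraries were scaled instead to general endothelial genes, none of the 7 remained higher by the test, whereas Lyve1 stayed lower in Sca-1+ ECs. Scarb1 was called lower under both such scalings, by a sum and by a geometric mean. Fcgr2b under both, and Stab1 under the geometric mean, had log2 fold changes under 0 that were not called. Of all genes tested, 74.5% and 87.0% were lower in Sca-1+ ECs under these scalings. On levels scaled to whole libraries, 44.8% of all 15937 genes tested differed between the fractions, 23.3% being higher and 21.4% lower in Sca-1+ ECs by edgeR's quasi-likelihood test (adjusted p under 0.05 over all genes tested). Every Sca-1+ library lay above every Sca-1- library for 24.8% of the genes tested, and below for 18.8%. The median log2 fold change was 3.84 over the 8 genes and 0.07 over all genes tested. Calls on 7 and 1 genes were read against that background.

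The 9 libraries held 21581653 to 25959818 counts on genes, at which depth 3 counts amounted to 0.0996 to 0.2095 CPM (counts scaled to library size). Ly6a, which encodes the sorted antigen, was at 874 to 1306 CPM in Sca-1+ libraries and at 0.240 to 1.49 CPM in Sca-1- libraries. Pecam1, which encodes CD31, was found in both, at 1137 to 1760 CPM and at 334 to 1701 CPM. General endothelial genes were not equally present. Of 24 tested, 21 were higher and 1 was lower in Sca-1+ ECs, and Cdh5, the endothelial cadherin, was at 235 to 297 CPM in Sca-1+ libraries against 2.44 to 13.2 CPM in Sca-1- libraries. All 16 genes of a megakaryocyte list were lower in Sca-1+ ECs and took 2.62% to 11% of the counts of Sca-1- libraries, against 0.0112% to 0.0190% in Sca-1+ libraries. General leukocyte genes were lower in Sca-1+ ECs in 10 of 12 cases, with a summed level of 224 to 286 CPM against 2999 to 5537 CPM, and Ptprc, which encodes CD45, was at 0 to 2.56 CPM against 17.2 to 47.8 CPM. The part of these other RNAs in the values below was not tested, and in such bulk libraries fewer cells of a type cannot be told apart from less RNA per cell. Values below are CPM, on library sizes scaled by the TMM method, in the order of libraries 7, 13, 15 and 19 for Sca-1+ ECs and 8, 10, 14, 16 and 22 for Sca-1- ECs.

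**Figure D1:**
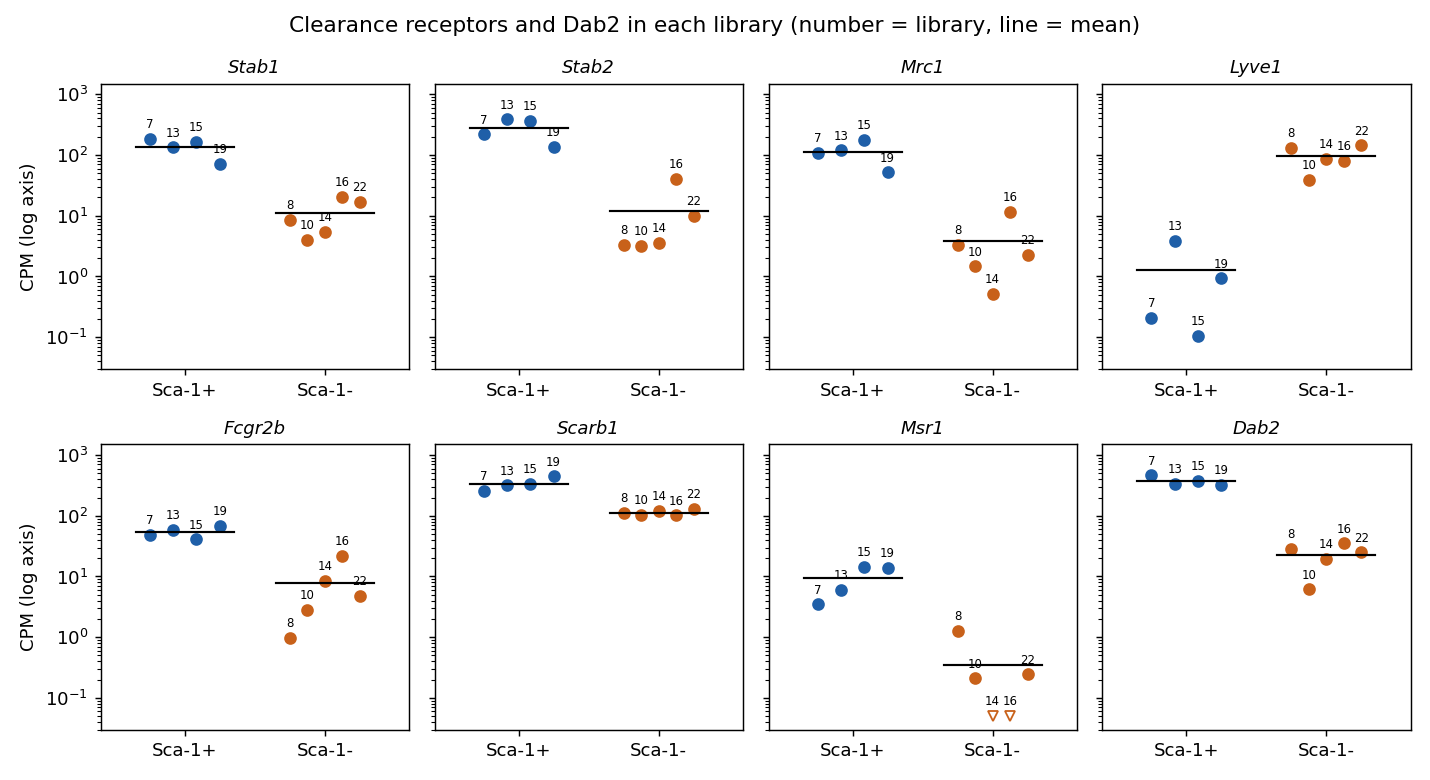
Level of each of the 8 genes in every library, in CPM on a log axis, with Sca-1+ libraries in blue and Sca-1- libraries in orange. Each point is 1 library with its number, horizontal lines are means, and open triangles mark libraries with 0 counts. In each panel the fractions do not overlap. On this scaling Lyve1 is the gene with the Sca-1- libraries on top. Scaled to general endothelial genes, Scarb1 is called lower in Sca-1+ ECs too, while Fcgr2b has a log2 fold change under 0 that is not called.

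The stabilins are large receptors with paired roles in clearance. Stab1 (ENSMUSG00000042286, chr14:31139013-31168641, minus strand, GRCm38) takes up acetylated low density lipoprotein and SPARC and also works inside the cell in sorting to lysosomes. Its level was 185, 133, 163 and 70.5 CPM in the Sca-1+ libraries and 8.59, 3.98, 5.345, 20.35 and 16.9 CPM in the Sca-1- libraries. Library 19 was the lowest of the Sca-1+ group and still 3.46-fold above library 16, the highest of the Sca-1- group. Stab1 was 12.5-fold higher in Sca-1+ ECs (log2 fold change 3.64, SE 0.521, adjusted p = 0.00037, edgeR).

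Stab2 (ENSMUSG00000035459, chr10:86841198-87008025, minus strand) is the main receptor by which sinusoids remove hyaluronan and other glycosaminoglycans from blood. In Sca-1+ libraries it was at 219, 385, 369.8 and 137 CPM, and in Sca-1- libraries at 3.30, 3.21, 3.61, 41.0 and 9.81 CPM. Libraries 8, 10 and 14 lay close together, while library 16 was 12.8-fold above library 10. The difference was 22.7-fold in favour of Sca-1+ ECs (log2 fold change 4.50, SE 0.853, adjusted p = 0.0018, edgeR). Without library 16 the log2 fold change was 5.79 (adjusted p = 7.5e-05).

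Mrc1 (ENSMUSG00000026712, chr2:14229392-14332057, plus strand) encodes the mannose receptor, a lectin that binds mannose-ended glycoproteins, collagen fragments and lysosomal enzymes, and that macrophages carry too. Values were 107, 119, 176 and 51.65 CPM in Sca-1+ libraries and 3.30, 1.47, 0.509, 11.5 and 2.24 CPM in Sca-1- libraries. Again library 19 was lowest on the Sca-1+ side and library 16 highest on the Sca-1- side, 4.48-fold apart. Mrc1 was 29.4-fold higher in Sca-1+ ECs (log2 fold change 4.88, SE 0.806, adjusted p = 0.00085, edgeR). Leaving out library 16 gave a log2 fold change of 5.91 (adjusted p = 0.00012).

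Promoter sequence is printed where a usable window was at hand, not for a shared pattern, and Lyve1, Scarb1 and Msr1 had none. For Stab1, Stab2, Mrc1 and the adaptor gene Dab2, the bases just before the transcription start are shown, as an account of what is there. These are the RefSeq promoter windows on GRCm38.p6, trimmed of bases inside the annotated gene and written 5′ to 3′ on the gene's strand. They cover chr14:31168642-31168891 for Stab1, chr10:87008026-87008192 for Stab2, chr2:14229164-14229391 for Mrc1 and chr15:6299539-6299787 for Dab2. Capitals mark the core of the ETS family's motif, GGAA, or TTCC where it lies on the other strand.
Stab1: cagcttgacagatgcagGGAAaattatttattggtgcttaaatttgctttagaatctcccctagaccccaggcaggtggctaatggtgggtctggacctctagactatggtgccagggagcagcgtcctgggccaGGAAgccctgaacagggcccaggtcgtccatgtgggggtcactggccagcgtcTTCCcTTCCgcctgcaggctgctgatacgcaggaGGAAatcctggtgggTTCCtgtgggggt
Stab2: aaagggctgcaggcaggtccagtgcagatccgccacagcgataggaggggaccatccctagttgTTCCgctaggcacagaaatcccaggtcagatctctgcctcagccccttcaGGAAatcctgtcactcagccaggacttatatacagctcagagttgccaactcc
Mrc1: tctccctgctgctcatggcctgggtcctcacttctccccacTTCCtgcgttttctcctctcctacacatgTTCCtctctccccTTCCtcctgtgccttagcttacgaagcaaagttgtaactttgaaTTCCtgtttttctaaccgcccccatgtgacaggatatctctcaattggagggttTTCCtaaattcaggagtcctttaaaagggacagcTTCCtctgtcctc
Dab2: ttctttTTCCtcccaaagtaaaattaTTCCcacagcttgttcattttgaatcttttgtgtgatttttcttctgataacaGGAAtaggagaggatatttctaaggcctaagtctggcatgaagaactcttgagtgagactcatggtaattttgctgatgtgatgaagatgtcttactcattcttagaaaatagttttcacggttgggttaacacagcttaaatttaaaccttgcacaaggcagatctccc
The Stab1 window held 6 such cores in 250 bases, and 8.7% of 32851 mouse promoters held as many in a window of that length. For Mrc1 there were 6 in 228 bases, a number reached by 5.9% of promoters, whereas Stab2 held 2 in 167 bases, reached by 56.5%, and Dab2 held 3 in 249 bases, reached by 54.4%. A single core is common, being found in 84.7% to 93.4% of windows of these lengths. Neither AGATAA, a form of the motif of GATA factors, nor AACAAT, a form of that of Sox factors, occurred on either strand of the windows. Other forms were not counted, and TGATAA, another GATA form, stands in the Dab2 window. A match of letters is a description and not a bound site.

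Scarb1, Msr1 and Lyve1 handle lipoprotein, modified ligands and hyaluronan, respectively, and differed from each other in size and direction. Scarb1 (ENSMUSG00000037936, chr5:125277087-125341094, minus strand) encodes the high density lipoprotein receptor SR-B1, which passes cholesterol esters into cells and carries lipoprotein across endothelium. It was at 258, 316, 337 and 446 CPM in Sca-1+ libraries and at 112, 102, 119.9, 101 and 128 CPM in Sca-1- libraries. These were the tightest Sca-1- values of the 8 genes, with the highest library 1.27-fold above the lowest. Scarb1 was 3.01-fold higher in Sca-1+ ECs on TMM-scaled levels (log2 fold change 1.59, SE 0.208, adjusted p = 0.00023, edgeR). That direction turned when libraries were scaled to general endothelial genes, by their sum or their geometric mean. Of all genes tested, 74.5% and 87.0% were then lower in Sca-1+ ECs.

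Msr1 (ENSMUSG00000025044, chr8:39581685-39642673, minus strand) encodes the class A scavenger receptor, which binds oxidized lipoprotein and bacterial surfaces and is best known from macrophages. It was a rare transcript, at 3.48, 5.96, 14.2 and 13.6 CPM in Sca-1+ libraries. In Sca-1- libraries it was at 1.26, 0.2095, 0, 0 and 0.244 CPM, which stood for 21, 3, 0, 0 and 6 counts. Libraries 10, 14 and 16 were thus at or under the 3 counts that a library can show. The fitted difference was 28.1-fold in favour of Sca-1+ ECs (log2 fold change 4.81, SE 1.17, adjusted p = 0.0073, edgeR), and it depended on library 8, without which the log2 fold change was 6.32 (adjusted p = 0.002).

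Lyve1 (ENSMUSG00000030787, chr7:110850607-110863239, minus strand) encodes a hyaluronan receptor of lymphatic vessels, liver sinusoids and some macrophages. It was the 1 gene of the 8 that was lower in Sca-1+ ECs. Sca-1+ libraries had 0.2045, 3.81, 0.104 and 0.929 CPM, from 6, 112, 3 and 24 counts, and Sca-1- libraries had 131, 38.6, 87.4, 81.0 and 143.9 CPM. Library 10 was the lowest Sca-1- library and yet 10.1-fold above library 13, the highest Sca-1+ library. The log2 fold change was -6.25 (SE 1.02, adjusted p = 8e-04, edgeR). Library 13 held most of the Sca-1+ counts, and without it the log2 fold change was -7.87 (adjusted p = 3e-04).

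Fcgr2b (ENSMUSG00000026656, chr1:170958617-170976547, minus strand) encodes the inhibitory Fc receptor, which clears small immune complexes in liver sinusoids and restrains B cells. Sca-1+ libraries were close together at 47.85, 58.9, 40.8 and 68.45 CPM. Sca-1- libraries spread widely, at 0.961, 2.79, 8.485, 21.7 and 4.72 CPM. The fractions came nearest to each other here, library 15 being 1.88-fold above library 16. The TMM-scaled level was 6.93-fold higher in Sca-1+ ECs (log2 fold change 2.79, SE 0.709, adjusted p = 0.009, edgeR), and without library 16 the log2 fold change was 3.65 (adjusted p = 0.00084). The call was not made with the title tag (wt or CD452) as a term in 7 libraries (log2 fold change 2.59, adjusted p = 0.051). Nor was it made in either direction when libraries were scaled to general endothelial genes. The log2 fold change was then -0.33 by their sum (SE 0.918, adjusted p = 0.75, edgeR) and -1.09 by their geometric mean (SE 0.651, adjusted p = 0.13).

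Fcgr2b shares sequence with its neighbours, and B cells carry it. Of the 50-base stretches of its longest transcript, 12.5% occurred in another gene and 4.75% in Fcgr3, which encodes an activating Fc receptor of myeloid cells. Fcgr3 was at 0.8288 to 3.41 CPM in Sca-1+ libraries and at 6.91, 12.5, 37.0, 223.5 and 5.09 CPM in Sca-1- libraries, so library 16 was the highest for both genes. Genes of a B and plasma cell list were lower in Sca-1+ ECs in 6 of 8 tested cases (75%) and higher in 1 (12.5%). Of all genes tested 21.4% were lower and 23.3% higher. The summed level of the list was 118 to 276 CPM in Sca-1+ libraries against 79.7 to 508 CPM in Sca-1- libraries. The part of either in the Fcgr2b values was not tested.

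Dab2 (ENSMUSG00000022150, chr15:6299788-6440712, plus strand) encodes a clathrin adaptor that gathers receptors of the low density lipoprotein receptor family into coated pits. It was at 462, 340.2, 375 and 325 CPM in Sca-1+ libraries and at 28.7, 6.14, 19.35, 35.03 and 25 CPM in Sca-1- libraries. Dab2 had the widest gap of the 7 genes higher in Sca-1+ ECs, with library 19 lying 9.27-fold above library 16. The difference was 16.4-fold (log2 fold change 4.04, SE 0.437, adjusted p = 8.6e-05, edgeR). Exons of Stab1, Stab2, Fcgr2b and Dab2 overlap a gene on the opposite strand over 1.09%, 1.61%, 2.68% and 2.87% of their length, and reads there could not be assigned to a strand with the information at hand.

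Macrophages carry Mrc1, Msr1, Fcgr2b, Stab1 and Lyve1, so genes of a macrophage list were set beside them. Of 22 such genes 16 were tested, 4 (25%) being higher and 2 (12.5%) lower in Sca-1+ ECs, against 23.3% and 21.4% of all genes tested. The summed level of the list was 556 to 634 CPM in Sca-1+ libraries and 880.3 to 2530 CPM in Sca-1- libraries. Cd14, Mertk and Hmox1 were among the higher genes, and Lyz2 and Cd163 were the lower ones, all named after their values were seen. Adgre1, the F4/80 antigen, was at 0.232 to 0.852 CPM in Sca-1+ libraries and 0.0814 to 4.16 CPM in Sca-1- libraries. C1qa, a complement gene of tissue macrophages, was at 0 to 2.83 CPM and 0.244 to 3.42 CPM. Marco was at 0 in all 9 libraries. Mrc1 in Sca-1+ libraries was thus at 51.65 CPM or more where Adgre1 was below 1 CPM.

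Spread within the Sca-1- group separated the genes further. Over all genes tested, the median SD of log2 CPM was 0.338 among Sca-1+ libraries and 0.693 among Sca-1- libraries. Scarb1 was steadier than most in the Sca-1- group, with an SD of 0.147 that 98.1% of genes tested exceeded. Msr1, Fcgr2b, Mrc1 and Stab2 were among the more variable, with SDs of 1.69, 1.65, 1.57 and 1.57, which 10.6% to 12.2% of genes exceeded. For Msr1 the SD rested on 21, 3, 0, 0 and 6 counts, and thus on libraries at or near 0 counts. Stab1 and Dab2 lay between, at 1.01 and 0.985. Scarb1 and Lyve1 varied less in the Sca-1- group than in the Sca-1+ group, the reverse of the other genes. The SD of Scarb1 was 0.326 in the Sca-1+ group. That of Lyve1 was 0.751 in the Sca-1- group, where it was abundant, and 1.98 in the Sca-1+ group, where it was rare.

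The same Sca-1- libraries recurred at the extremes. Library 16 was the highest of the 5 for Stab1, Stab2, Mrc1, Fcgr2b and Dab2, library 22 for Lyve1 and Scarb1, and library 8 for Msr1. Library 10 was the lowest for 4 of the 8 genes. Library 16 had the smallest share of megakaryocyte genes, 2.62% of its counts, and library 10 the greatest, 11%, with 8.97%, 5.33% and 3.66% in libraries 8, 14 and 22. These 5 libraries are too few for a correlation, and the part of megakaryocyte RNA in the spread was not tested.

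As a percentage of the Sca-1+ mean, the Sca-1- libraries kept 29.8% to 37.8% of the Scarb1 level. For Fcgr2b they ranged from 1.78% in library 8 to 40.2% in library 16. Stab1 was at 2.88% to 14.7%, Stab2 at 1.16% to 14.75%, Dab2 at 1.64% to 9.33% and Mrc1 at 0.449% to 10.2%. Cdh5 was at 0.925% to 4.98% and Ly6a at 0.0212% to 0.132%, so these 7 genes were less depleted than the sorted antigen in every Sca-1- library, Msr1 at 0 counts in libraries 14 and 16 being the exception.

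**Figure D2:**
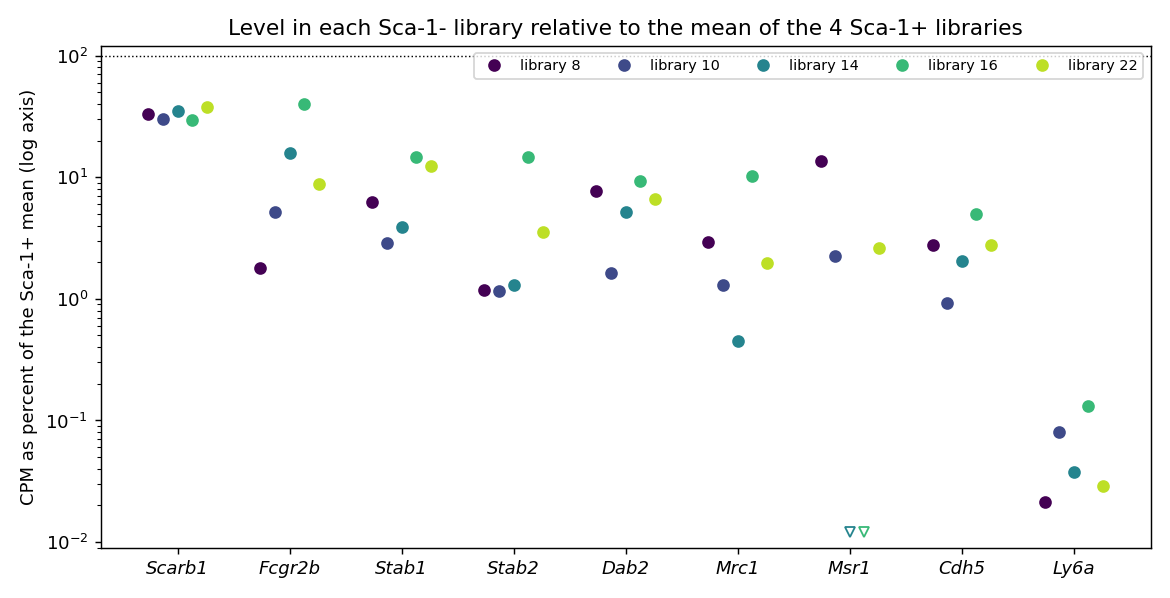
Level of 7 of the 8 genes, Cdh5 and Ly6a in each Sca-1- library as a percentage of the mean of the 4 Sca-1+ libraries, on a log axis. Each point is 1 library, colours are libraries, open triangles stand for 0 counts and the dotted line is 100%. Scarb1 stays near 30.1% to 37.8% in libraries 8, 10, 14 and 22 and at 29.8% in library 16, whereas Fcgr2b reaches from 1.78% to 40.2%.

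Genes were compared with each other per kilobase of exon, since longer transcripts gather more reads. On that scale the order in Sca-1+ ECs was Dab2 at 51.15 ± 8.38 CPM per kb (SD, n = 4), Scarb1 at 39.9 ± 9.26, Stab2 at 31.7 ± 13.7, Mrc1 at 17.8 ± 7.99, Stab1 at 13.4 ± 4.85 and Fcgr2b at 9.325 ± 2.10. Msr1 at 1.47 ± 0.853 and Lyve1 at 0.433 ± 0.596 closed it. Neighbours in this order overlapped in range, except Fcgr2b and Msr1. In Sca-1- ECs the order began with Lyve1 at 33.0 ± 14.5 CPM per kb (SD, n = 5) and Scarb1 at 13.3 ± 1.36. Dab2 followed at 3.11 ± 1.49, with no overlap with Scarb1, and then Stab2 at 1.39 ± 1.87, Fcgr2b at 1.34 ± 1.43, Stab1 at 1.07 ± 0.704, Mrc1 at 0.598 ± 0.696 and Msr1 at 0.0541 ± 0.0829, each overlapping the next. By these means Lyve1 was last of the 8 genes in Sca-1+ ECs and first in Sca-1- ECs. Its range overlapped that of Msr1 in Sca-1+ ECs, where both were rare. In Sca-1- ECs it overlapped that of Scarb1, Lyve1 starting at 13.2 and Scarb1 reaching 15.1 CPM per kb.

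Because endothelial genes as a whole were low in Sca-1- libraries, each gene was also set against them. The mean log2 CPM of 24 general endothelial genes was 8.34 to 8.55 in Sca-1+ libraries and 3.44 to 4.802 in Sca-1- libraries. Relative to that mean, log2 levels of Dab2 were 0.095 ± 0.145 (SD, n = 4) in Sca-1+ ECs and -0.073 ± 0.526 (n = 5) in Sca-1- ECs. Stab1 was at -1.42 ± 0.538 and -1.18 ± 0.679, Stab2 at -0.445 ± 0.691 and -1.58 ± 1.35, and Mrc1 at -1.75 ± 0.676 and -3.11 ± 1.52. Fcgr2b was at -2.715 ± 0.433 and -2.10 ± 1.49, and Msr1 at -5.435 ± 1.001 and -6.43 ± 1.90. For these 6 genes the ranges of the fractions overlapped. Scarb1, at -0.065 ± 0.404 and 2.43 ± 0.489, was lower in every Sca-1+ library than in every Sca-1- library on this relative scale, and so was Lyve1, at -9.01 ± 2.09 and 2.07 ± 0.425.

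The tested form of this comparison scaled each library to the summed counts of the general endothelial genes. It moved the median log2 fold change of all genes tested to -2.69, with 397 genes higher and 11869 lower in Sca-1+ ECs. Under it the log2 fold change was 1.75 for Mrc1 (adjusted p = 0.10), 2.47 for Msr1 (adjusted p = 0.062), 1.27 for Stab2 (adjusted p = 0.25), 1.10 for Dab2 (adjusted p = 0.12) and 0.58 for Stab1 (adjusted p = 0.47) by edgeR. Fcgr2b was at -0.33 (adjusted p = 0.75), and Scarb1 was lower in Sca-1+ ECs at -1.15 (adjusted p = 0.026), as was Lyve1 at -8.98 (adjusted p = 1e-04). Esam, Myct1 and Tal1 made up 44.9% to 92.1% of that sum in Sca-1- libraries against 11.55% to 14.65% in Sca-1+ libraries, so a geometric mean of the 24 genes was used as well. The median of all genes tested then moved to -4.05, Dab2 was at 0.09 (adjusted p = 0.78), Stab1 at -0.30 (adjusted p = 0.49), and Scarb1 and Lyve1 were again the only genes of the 8 called, both lower in Sca-1+ ECs, at -2.54 (adjusted p = 7.7e-05) and -10.15 (adjusted p = 1.3e-05). Which scaling is nearer to the amount of RNA per EC cannot be told with these libraries.

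**Figure D3:**
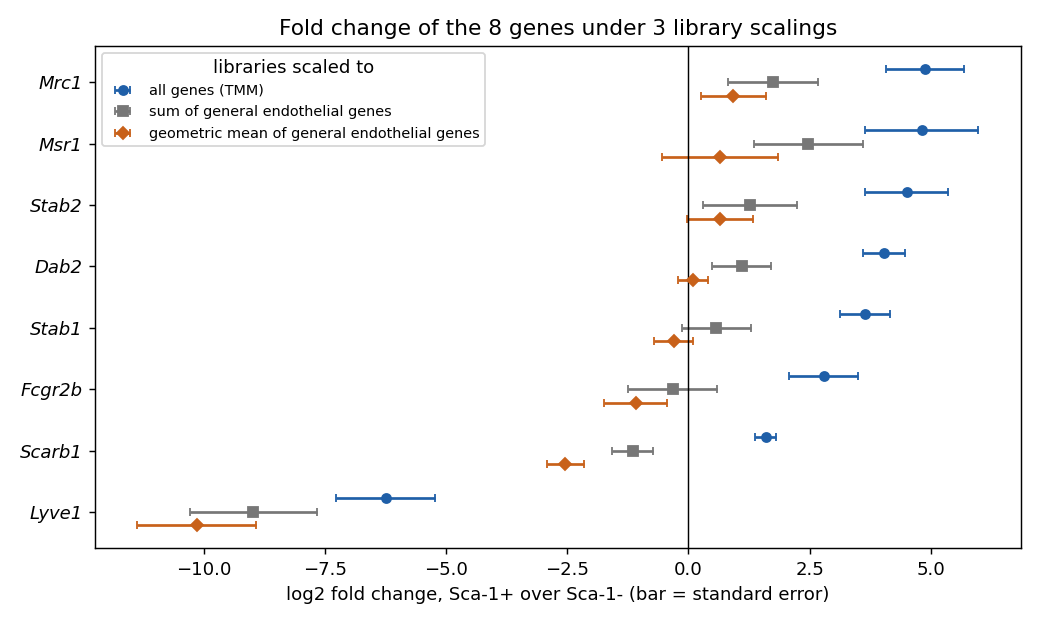
Log2 fold change of each of the 8 genes, Sca-1+ over Sca-1-, with its standard error, under 3 scalings of the libraries: to all genes by TMM (blue circles), to the sum of general endothelial genes (grey squares) and to their geometric mean (orange diamonds). Under TMM 7 genes lie right of 0, under the other scalings Fcgr2b and Scarb1 lie left of 0, Stab1 lies left of 0 with the geometric mean, and Lyve1 lies left of 0 in each.

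Partners that act next to these 8 proteins were next. Of 10 such genes, 2 (20%) were higher and 4 (40%) lower in Sca-1+ ECs on TMM-scaled levels, against 23.3% and 21.4% of all genes tested. The median log2 fold change of the list was near 0 (-0.004). Scaling to summed endothelial genes left 0 of the list higher and 9 lower, against 2.49% and 74.5% of all genes tested. Gulp1, an adaptor that binds the tails of stabilins, was higher at 40.1 ± 11.3 CPM against 3.81 ± 2.71 CPM (log2 fold change 3.40, adjusted p = 0.0014, edgeR), and so was Chid1, a chitinase-like ligand of stabilin 1, at 67.75 ± 10.9 CPM against 31.2 ± 5.34 CPM. Gga2, a sorting adaptor, was lower at 13.2 ± 4.17 CPM against 56.1 ± 11.5 CPM, whereas Gga1, Gga3, Snx17 and Myo6, which sort or move endocytic cargo, had log2 fold changes of 0.08, 0.03, -0.03 and 0.35 and were not called.

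Inpp5d, the phosphatase SHIP1 that the inhibitory Fc receptor recruits, was 9.62-fold lower in Sca-1+ ECs. Lyn, the kinase that phosphorylates that receptor, was at 115 ± 15 CPM against 1027 ± 766 CPM (log2 fold change -3.16, adjusted p = 0.0014, edgeR). Both are genes of leukocytes and platelets too, and both were highest in library 10, at 675 CPM for Inpp5d and 2081 CPM for Lyn. Pdzk1, the scaffold that holds SR-B1 at the membrane in liver, was scarce in both fractions, at 0.627 ± 0.282 CPM in Sca-1+ ECs and 3.35 ± 1.62 CPM in Sca-1- ECs, and its ranges overlapped although it was called lower (adjusted p = 0.0081).

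Other clearance receptors split evenly. Of 27 tested among 36, 9 (33.3%) were higher and 9 (33.3%) lower in Sca-1+ ECs, against 23.3% and 21.4% of all genes tested. The median log2 fold change of the list was 0.82. With libraries scaled to summed endothelial genes 1 was higher and 13 were lower, against 2.49% and 74.5% of all genes tested. Those with the highest levels per kilobase were all higher on TMM-scaled levels. Cd36, a fatty acid and oxidized lipoprotein receptor, was at 2370 ± 1069 CPM against 14.9 ± 16.3 CPM (log2 fold change 7.31, adjusted p = 0.00017, edgeR). Fcgrt, the neonatal Fc receptor that recycles IgG and albumin, was at 1547 ± 421 CPM against 79.8 ± 36.2 CPM, and Cd14, the endotoxin co-receptor, at 168 ± 57.0 CPM against 9.59 ± 7.58 CPM. On the other side, and named after their values were seen, were Clec4g, a lectin of liver and lymph node sinusoids, at 0.0851 CPM against 23.9 CPM (adjusted p = 0.00031), and Lrp8 and Vldlr, which are low density lipoprotein receptor relatives bound by reelin, with log2 fold changes of -3.84 and -2.02. Marco and Cd209b were at 0 in every library.

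For the machinery of clathrin uptake 8 of 35 genes (22.9%) were higher and 11 (31.4%) lower in Sca-1+ ECs. Of all genes tested 23.3% were higher, near the share of this list, and 21.4% were lower. The median log2 fold change of the list was -0.14. Under scaling to summed endothelial genes 0 of the list were higher and 30 lower, against 2.49% and 74.5% of all genes tested. Ap2s1 and Ap2m1, subunits of the AP2 adaptor, had log2 fold changes of 0.60 (not called, adjusted p = 0.11) and -1.29 (adjusted p = 0.0099, edgeR), and Ehd4, which acts in recycling endosomes, one of -1.77 with overlapping ranges. Library size as the only scaling gave 13 of the clathrin genes higher and 10 lower. Genes of lysosomal degradation leaned the other way on TMM-scaled levels, 14 of 28 being higher and 3 lower with a median log2 fold change of 0.86. Under scaling to summed endothelial genes 0 were higher and 18 lower, against the same 2.49% and 74.5% of all genes tested. Ctsd and Ctsz, the cathepsins among the highest per kilobase, were both lower in Sca-1+ ECs, with log2 fold changes of -1.11 (adjusted p = 0.047, edgeR) and -1.66 (adjusted p = 0.029), and Lamp1, a lysosomal membrane protein, was not called at -0.07. The number lower was 1 without Sca-1+ library 7, 13 or 15 or without Sca-1- library 8. Ctsb and Ctsl, named after their values were seen, were higher in Sca-1+ ECs at 2795 against 245 CPM and 1112 against 43.1 CPM.

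Hyaluronan genes beside Stab2 and Lyve1 gave 2 higher and 3 lower of 8 tested on TMM-scaled levels. When scaled to summed endothelial genes the hyaluronan genes gave 0 higher and 5 lower, against 2.49% and 74.5% of all genes tested. Hyal2, a membrane-bound hyaluronidase, was at 190 ± 16.9 CPM in Sca-1+ ECs against 20.7 ± 9.24 CPM (log2 fold change 3.19, adjusted p = 7.5e-05, edgeR). Cd44, the hyaluronan receptor of leukocytes, was at 16.1 ± 4.97 CPM against 409.5 ± 281 CPM (log2 fold change -4.67, adjusted p = 2e-04), and Layn, another hyaluronan receptor, at 22.1 ± 5.24 CPM against 88.4 ± 55.7 CPM. Cd44, like Lyve1, was lower in Sca-1+ ECs, and its Sca-1- libraries ran from 141 CPM in library 16 to 735 CPM in library 10, the library in which Lyve1 was lowest.

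Of 12 sterol and lipoprotein genes tested beside Scarb1, 8 (66.7%) were higher and 1 (8.33%) lower in Sca-1+ ECs on TMM-scaled levels. The shares over all genes tested were 23.3% and 21.4%, and the median log2 fold change of the list was 2.21. With summed endothelial genes as the scaling, 1 of the list was higher and 4 were lower, against 2.49% and 74.5% of all genes tested. Apoe, the apolipoprotein, was at 1709 ± 377 CPM against 161 ± 99.6 CPM and Pltp, the phospholipid transfer protein, at 234 ± 122 CPM against 10.7 ± 2.36 CPM. Nr1h2, the ubiquitous liver X receptor, was not called (log2 fold change -0.35, adjusted p = 0.22, edgeR). Without Sca-1+ library 15 or without library 19 the number higher was 5.

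**Figure D4:**
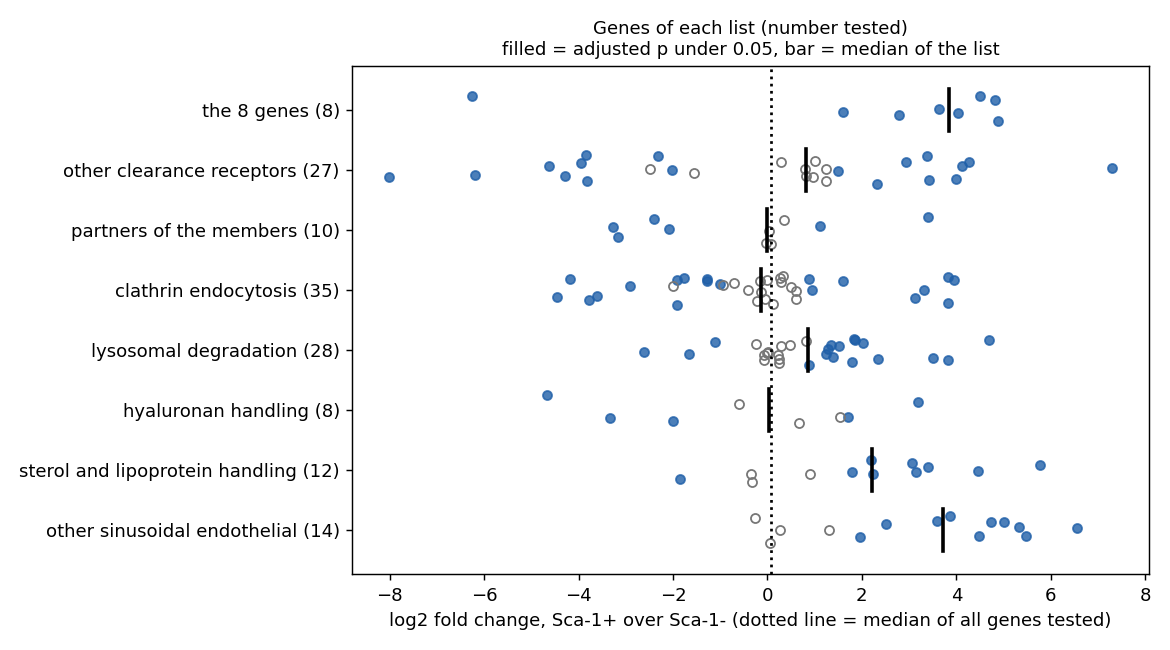
Log2 fold change, Sca-1+ over Sca-1- on TMM-scaled levels, of every tested gene in the 8 genes and in 7 related lists. Each point is 1 gene, filled where the adjusted p is under 0.05, bars are list medians and the dotted line is the median of all genes tested, 0.07. The 8 genes have a median of 3.84 and other sinusoidal genes one of 3.73, while partners and clathrin genes lie around 0. Scaling to summed endothelial genes would move the dotted line to -2.69.

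Other genes used as sinusoidal markers moved with the 7 on TMM-scaled levels. Of 14 tested, 10 (71.4%) were higher and 0 lower in Sca-1+ ECs, against 23.3% and 21.4% of all genes tested. The summed level of the list was 8244 to 10520 CPM in Sca-1+ libraries against 187 to 634 CPM in Sca-1- libraries. When scaled to summed endothelial genes 4 were higher and 2 lower, against 2.49% and 74.5% of all genes tested. Plvap, the diaphragm protein of fenestrated endothelium, was at 6862 ± 855 CPM in Sca-1+ ECs against 214 ± 107.5 CPM (log2 fold change 5.004, adjusted p = 3.1e-05, edgeR). Emcn, the sialomucin stained as a sinusoidal marker, was at 854.5 ± 163 CPM against 19.2 ± 9.85 CPM, and Ackr1, the atypical chemokine receptor of venules, at 543 ± 242 CPM against 13.4 ± 10.8 CPM. Oit3, Rspo3, Wnt2 and Wnt9b were not called and Gata4 was at 0 throughout. Arteriolar genes were higher in Sca-1+ ECs as well, in 15 of 15 cases, against 23.3% of all genes tested. With libraries scaled to summed endothelial genes 13 were higher, against 2.49% of all genes tested. On TMM-scaled levels, markers of both vessel types were thus higher in the Sca-1+ fraction, and 7 of the 8 genes were not higher in the fraction that stands for sinusoids. Scaled to endothelial genes, Scarb1 and Lyve1 were higher in the Sca-1- fraction and the other 6 were not called in either direction. Under the sum and the geometric mean, 74.5% and 87.0% of all genes tested were lower in Sca-1+ ECs, with medians of -2.69 and -4.05. Scarb1, at -1.15 and -2.54, lay above both medians, so its call was in the direction of most genes.

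Lyve1 is also a lymphatic gene. Of 6 other lymphatic endothelial genes 4 (66.7%) were lower and 1 (16.7%) higher in Sca-1+ ECs, against 21.4% and 23.3% of all genes tested. The higher one, Flt4, is the VEGF-C receptor, also listed with sinusoidal genes, and it was not higher without Sca-1+ library 15 or under either scaling to endothelial genes. Ccl21a, a chemokine of lymphatic vessels with near-identical copies in the mouse genome, was at 117.7, 30.5, 140.5, 103.5 and 127.5 CPM in Sca-1- libraries and at 0, 0.0341, 0 and 0 CPM in Sca-1+ libraries, at least 980-fold lower against a mean floor of 3 counts per library. Reln, which encodes reelin, was at 10.1, 1.40, 8.99, 6.34 and 15.8 CPM in Sca-1- libraries and at 0 in the 4 Sca-1+ libraries, at least 80.4-fold lower. Like Lyve1, both were lowest in library 10 of the Sca-1- group. Pdpn, podoplanin, was at 0.0341 to 0.271 CPM against 2.33 to 17.2 CPM, and Mmrn1, a gene of lymphatics and megakaryocytes, at 64.9 to 184 CPM against 967 to 3397 CPM. Prox1, the defining transcription factor of lymphatic endothelium, was not called at 7.58 CPM against 13.3 CPM (log2 fold change -0.81, adjusted p = 0.14, edgeR) and its ranges overlapped. These genes are named after their values were seen, and the part of lymphatic endothelial RNA in the Lyve1 values was not tested.

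**Figure D5:**
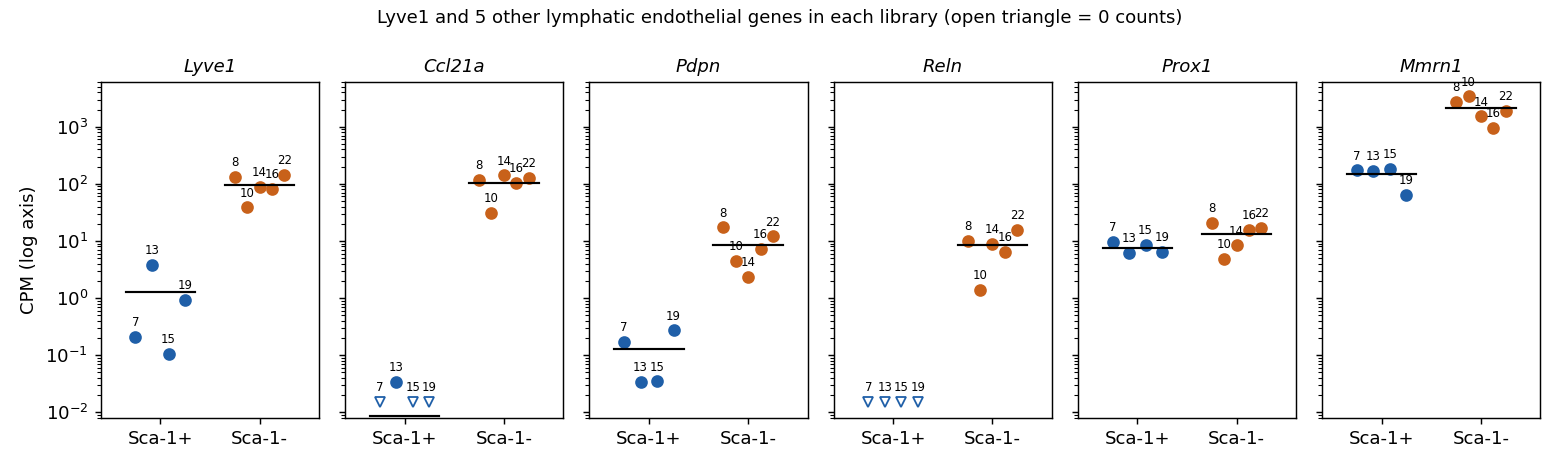
Lyve1 and 5 lymphatic endothelial genes in each library, in CPM on a log axis. Points are libraries with their numbers, lines are means and open triangles are libraries with 0 counts. Lyve1, Ccl21a, Pdpn, Reln and Mmrn1 are lower in every Sca-1+ library than in every Sca-1- library, and Prox1 overlaps.

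The gene most alike to each of the 8 was found by the mean absolute difference of log2 CPM, centred on its mean, over the 9 libraries. Scarb1 had the commonest pattern, with 1821 genes within 0.5 and the transcript Gm15542 nearest at 0.145. Dab2 had 206 genes within 0.5, the nearest being Fscn1, an actin bundler, at 0.218, and Stab1 had 109, the nearest being 4930512B01Rik at 0.19. Stab2 had 17 with Gm10399 nearest at 0.256, Fcgr2b 14 with Jade2 at 0.406, and Mrc1 7 with Chst2 at 0.384. No gene came within 0.5 of Lyve1 or Msr1, for which Slc45a3 at 0.709 and Il17rd at 0.623 were nearest.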

How the data were processed

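RNA-seq libraries (SMART-Seq v4, polyA RNA) of sorted BM ECs, 4 Sca-1+ and 5 Sca-1-, were analysed as labelled. The authors deposited whole-number read counts per gene, not normalized, and the submitters' processing notes name STAR, featureCounts and mm10; versions, strand setting and annotation release are not given in the sources used here. Counts include PCR copies, so floors (3 counts) cover counting error only. No libraries of a fraction were copies of each other (chi-square per degree of freedom 36.8 to 538).

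The counts were fitted by edgeR 4.0.16 (R 4.3.3), with filterByExpr (minimum count 10, total 15), TMM, the two-sided quasi-likelihood F-test with no covariate, Benjamini-Hochberg adjustment over 15937 genes and a threshold of 0.05. SEs came from the F statistic, log2 CPM used a prior count of 2, and exon lengths, coordinates and overlaps came from GENCODE M21 (45229 of 46078 identifiers matched). In the lists, 275 of 277 symbols were found. The test was first tested on simulated data.

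The 8 genes and all lists were chosen with earlier results of these data known. Named were the 8 genes, Ly6a, Pecam1 and Ptprc, the 3 genes of each pathway list with the highest level per kilobase, every partner, markers at 0 and the gene most alike to each of the 8; others are marked as named after their values were seen, as are Cdh5, Fcgr3, Adgre1, C1qa, Esam, Myct1 and Tal1. Abca1, Abcg1, Lipg, Axl, Mertk, Tyro3 and Olr1 were also named after their values were seen. Alternatives changed the scaling, filter, test (DESeq2 1.42.0, limma 3.58.1 voom), robustness, pairing, title tag or libraries. Values of some genes in the lists are not reported here.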

Additional observations from a re-analysis of the deposited data

Results flagged for a closer look

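The summed level of general leukocyte genes in Sca-1+ library 13 stood apart from the other 3 libraries of its fraction, at 7.81 on the log2 CPM scale against 8.11 to 8.16, its gap to the nearest library being 0.848 of the range. Of 34 groups of libraries checked in this way 1 was singled out, and chance singles out about 1 in 20. Library 13 was also the Sca-1+ library with the most Lyve1, at 3.81 CPM.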

How the results depend on the processing

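Of 26 alternatives, 9 of which left out 1 library each, 21 kept 7 genes higher and 1 lower, 1 kept 6 higher and 2 kept 5 higher, each with 1 lower. The other 2 scaled libraries to general endothelial genes, giving 0 higher and 2 lower, with 12266 genes differing by their sum and 14129 by their geometric mean (chosen after seeing the data, as were the title tag, a block of libraries 15 and 16, and leaving out libraries 16 and 19 or 16 and 22). There Scarb1 reversed to -1.15 and -2.54 and was called. Fcgr2b went to -0.33 and -1.09 and Stab1, by the geometric mean, to -0.30, neither of them called. Of all genes tested, 74.5% and 87.0% were lower in Sca-1+ ECs under these scalings. Leaving out 1 library kept 7 higher and 1 lower each time, with 5957 to 6969 genes differing. A replicate block of the 6 libraries with consecutive end numbers gave 4340 genes and the same 6 libraries without the block 5360; both kept 5 genes higher, losing Fcgr2b (log2 fold change 2.96, adjusted p = 0.077 with the block; 2.23, adjusted p = 0.10 without) and Msr1 (6.34, adjusted p = 0.11; 4.30, adjusted p = 0.098), with fewer libraries in either fit. Deviations of these pairs correlated at 0.147, 0.148 and, for 15 and 16, which share a number in their titles, 0.042; the other end numbers are not said to mark a mouse. A replicate block of 15 and 16 alone gave 6847 genes, and the title tag as a term 5234. With library size as the only scaling 4158 genes were higher and 2431 lower, a median of 0.43. Depth limits Msr1 in the Sca-1- libraries and Lyve1 in the Sca-1+ libraries.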

Other observations

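Some further clearance receptors are given by their values, after which they were picked. Axl and Mertk, which bind apoptotic cells by their phosphatidylserine through bridging proteins, were at 86.25 and 27.9 CPM in Sca-1+ ECs against 8.26 and 2.61 CPM in Sca-1- ECs, with log2 fold changes of 3.38 (adjusted p = 0.00014, edgeR) and 3.42 (adjusted p = 0.00032), while Tyro3, the third of their family, was not called at 2.46 against 1.04 CPM. Olr1, the oxidized lipoprotein receptor LOX-1, went the other way on TMM-scaled levels at 0.735 against 52.9 CPM (log2 fold change -6.19, adjusted p = 0.012).

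Among sterol genes, also picked after their values were seen, Abca1 and Abcg1 hand cholesterol to high density lipoprotein, the ligand of Scarb1, and were higher in Sca-1+ ECs on the same scaling. Abca1 was at 50.3 against 10.8 CPM and Abcg1 at 27.9 against 3.14 CPM. Lipg, endothelial lipase, was at 79.3 against 1.385 CPM (log2 fold change 5.77, adjusted p = 0.0032, edgeR).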
